A study of Mus musculus with 5 samples.

Results

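Muscle-type genes in the lens are described here through 7 genes best known from skeletal muscle, Acta1, Ttn, Actn3, Des, Ckm, Nmrk2 and Chrng. They were taken by symbol from a table of 22183 mouse genes, and all 7 were found. They had been picked because they had counts in lens RNA where few were looked for, and because Nmrk2 was higher in the mutant lenses. Their levels and their differences between the groups are therefore given as a description, with no test.

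The lenses came from 14-day-old (P14) mice, and 4 to 6 whole lenses were pooled for each of the 5 poly(A) RNA libraries. The cKO group (2 libraries, cKO 1 and cKO 2) held lenses of Yap1f/f;Cre or Yap1f/+;Cre mice, in which Yap1, a co-activator of the Hippo pathway, is deleted by Cre from both alleles or from one. Those mice were chosen by a severe eye phenotype, small eyes with a closed pupillary membrane, and not by genotype. The Ctrl group (3 libraries, Ctrl 1 to Ctrl 3) held lenses of littermates with the floxed alleles, Yap1f/f or Yap1f/+, and normal eyes, although the genotype label calls them WT. Which promoter drives Cre was not stated. Pools are the replicates (n). As bulk RNA cannot tell fewer cells from less RNA per cell, levels are levels of the whole pool.

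In skeletal muscle, sarcomeres are built from thin filaments of α-actin and thick filaments of myosin, which titin spans and α-actinin anchors at the Z-disc, while desmin ties neighbouring Z-discs together. Creatine kinase keeps ATP supplied there, NMRK2 phosphorylates nicotinamide riboside on one route to NAD, and acetylcholine receptors at the neuromuscular junction start each contraction. Lens fibres hold no sarcomeres, but they do carry a dense cytoskeleton of actin, spectrin and intermediate filaments, among them vimentin and the lens-specific beaded filament.

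The libraries held 22047580 to 25762802 expected counts. Abundance is given as CPM (counts relative to library size after TMM scaling between libraries). A count of 0 allows up to 3 counts, or 0.112 to 0.146 CPM in these libraries, for counting error only. The lens label was checked against its markers, and all 6 fibre markers checked (such as Cryaa and Mip) were above 3 counts in every library and summed to 193629 to 237256 CPM.

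Of the 7 genes, RefSeq promoters (GRCm38.p6, 250 bases before the start site and 50 after it) were at hand for 6, all but Actn3. E-boxes, the letters CANNTG, are the sites that the MyoD family of muscle regulators reads, and they were found in 6 of these 6 promoters and in 72.3% of 32851 promoters of that length. The form CAGCTG, itself a case of CANNTG, was in 4 of the 6 (Chrng, Acta1, Ckm and Des) and in 16.3% of all promoters. Both forms were searched on both strands. The letters CATTCC, the core read by the TEAD partners of YAP, were in Acta1 and Ttn and in 14.7% of all promoters, on either strand. The CArG box, read by serum response factor, was in Acta1 and in 1.63% of all promoters. The levels described next differed between the members, and 3 members were taken as examples. Nmrk2 was low in Ctrl and raised in both cKO pools. Chrng was abundant in all pools and higher still in both cKO pools, and Acta1 was mostly in 1 pool. Actn3 and Des were unlike these 3. The promoters of the 3 examples are shown 5′ to 3′, with CANNTG in capitals. They lie at chr10:81201988-81202287 on the minus strand (Nmrk2), chr1:87205561-87205860 on the plus strand (Chrng) and chr8:123894726-123895025 on the minus strand (Acta1).
Nmrk2 promoter: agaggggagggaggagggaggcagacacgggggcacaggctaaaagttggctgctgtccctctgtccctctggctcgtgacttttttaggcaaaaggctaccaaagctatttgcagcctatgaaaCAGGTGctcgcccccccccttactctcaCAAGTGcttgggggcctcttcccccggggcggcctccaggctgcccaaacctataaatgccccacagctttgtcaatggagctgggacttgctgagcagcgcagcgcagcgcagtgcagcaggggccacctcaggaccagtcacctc
Chrng promoter: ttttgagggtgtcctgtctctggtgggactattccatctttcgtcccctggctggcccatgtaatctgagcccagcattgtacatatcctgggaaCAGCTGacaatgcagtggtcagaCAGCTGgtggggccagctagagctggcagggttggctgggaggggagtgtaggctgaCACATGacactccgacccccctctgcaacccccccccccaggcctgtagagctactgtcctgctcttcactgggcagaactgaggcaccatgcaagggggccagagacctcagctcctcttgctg
Acta1 promoter: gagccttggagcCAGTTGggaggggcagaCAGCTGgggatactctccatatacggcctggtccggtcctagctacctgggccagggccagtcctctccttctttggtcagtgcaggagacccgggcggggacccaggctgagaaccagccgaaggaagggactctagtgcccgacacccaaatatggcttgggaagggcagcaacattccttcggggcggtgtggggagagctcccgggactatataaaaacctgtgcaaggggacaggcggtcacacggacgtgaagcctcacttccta
Chrng held CAGCTG at 2 places, Acta1 held it once beside CAGTTG, and Nmrk2 held CAGGTG and CAAGTG. A match of letters is a description and not a bound site.

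The 7 genes fell into different patterns across the pools. Both cKO libraries lay above all Ctrl libraries for 4 genes (Nmrk2, Chrng, Acta1 and Ttn), below them for 1 (Actn3), and overlapped with them for Ckm and Des. Over the 15761 genes with a count, both cKO libraries lay above every Ctrl library for 18.2% and below for 25.8%. Acta1, Ttn and Ckm were highest in cKO 1 and far lower in cKO 2. The structural genes Actn3 and Des were instead highest in control libraries. Chrng was higher in cKO 2 than in cKO 1, and Nmrk2 was high in both.

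**Figure D1:**
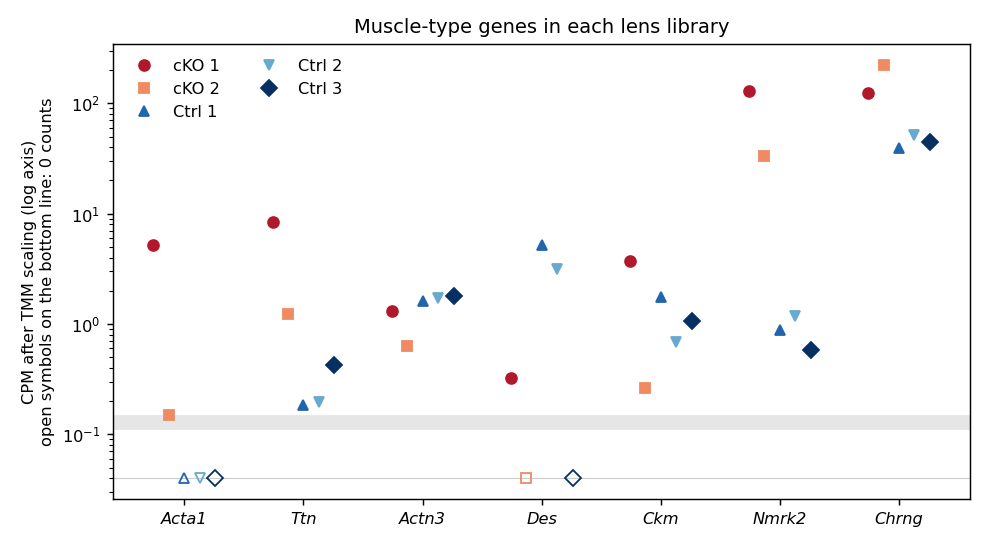
CPM after TMM scaling (log axis) of the 7 genes in each of the 5 libraries, 1 symbol per library, with 0 counts as open symbols on the bottom line and the level of 3 counts as a grey band. Acta1 lies at 5.19 CPM in cKO 1, near the band in cKO 2 and at 0 in Ctrl, while Chrng is at 39.6 CPM or more in all 5 libraries.

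Among the structural genes, Acta1 encodes skeletal α-actin, the actin of the thin filament. It had 127 counts in cKO 1, 4 in cKO 2 and 0 in each Ctrl library. Almost all of its RNA was thus in 1 pool, and even there it was at 5.19 CPM. The mean of the cKO libraries was at least 20.0-fold higher than 3 counts in each Ctrl library would be, but cKO 2 on its own was at 0.149 CPM, close to what 3 counts give. Acta1 did not pass the count filter and was not fitted.

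Ttn encodes titin, the giant spring of the sarcomere. It had 206 counts in cKO 1, 33 in cKO 2, and 4, 4 and 11 in Ctrl 1, 2 and 3. The cKO libraries lay above the Ctrl libraries, but cKO 1 was 6.85 times cKO 2 in CPM. The fitted log2 fold change of cKO over Ctrl was 4.12 (SE 0.90), and it was 2.14 without cKO 1. On the log2(FPKM + 1) scale, on which low values weigh little, it was 0.27. The implied transcript length also differed between the pools. A count divided by its FPKM gives the mean length of its transcripts, weighted by transcript abundance and not by counts. For Ttn it was 19339 bases in cKO 1 (19317 to 19361 with the rounding of the FPKM values). It was 80863 bases in cKO 2 (78677 to 83173) and 47441 bases in Ctrl 3 (44944 to 50232), from 33 and 11 counts. GENCODE M21 lists Ttn transcripts of 106824, 101674, 100404, 81843, 24817 and 16891 bases among many shorter ones. A few counts on a short transcript can lower such a mean, so it does not show where most Ttn counts of cKO 1 were assigned. In Ctrl 1 and 2, 4 counts each allow no such estimate.

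Actn3 encodes α-actinin-3, the Z-disc crosslinker of fast fibres. It had 32 counts in cKO 1, 17 in cKO 2, and 35, 35 and 47 in Ctrl 1, 2 and 3. It was low and even in the controls, at 1.71 ± 0.0904 CPM (SD, n = 3), and both cKO libraries lay below them at 1.31 and 0.633 CPM. The log2 fold change was −0.82 (SE 0.53), and it was −0.39 without cKO 2 and −1.44 without cKO 1. Unlike Acta1 and Ttn, Actn3 was no higher in cKO 1 than in the controls.

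Des encodes desmin, the muscle intermediate filament. It had 113 and 64 counts in Ctrl 1 and 2 but 0 in Ctrl 3, and 8 and 0 counts in cKO 1 and 2. The controls themselves were split, and the groups overlapped. The fitted log2 fold change of −4.08 (SE 2.10) was smaller than 2 SE. The highest libraries of Des were not those of Acta1 and Ttn.

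Ckm encodes the muscle creatine kinase. It had 92 counts in cKO 1, 7 in cKO 2, and 38, 14 and 28 in Ctrl 1, 2 and 3. The cKO libraries thus lay on either side of the controls. The log2 fold change of 0.77 (SE 1.02) turned to −2.16 without cKO 1. Ckm was present in every control library, at 0.683 to 1.76 CPM, where Acta1 had no count.

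Nmrk2 encodes nicotinamide riboside kinase 2, a muscle-enriched enzyme of NAD salvage. It had 3154 counts in cKO 1, 896 in cKO 2, and 19, 24 and 15 in Ctrl 1, 2 and 3. Both cKO libraries were far above every control, at 129 and 33.4 CPM against 0.876 ± 0.298 CPM (SD, n = 3). The log2 fold change was 6.54 (SE 0.66), and it was 5.26 without cKO 1 and 4.79 on the log2(FPKM + 1) scale. Per length, Nmrk2 stood at rank 535 and 1546 of all genes by FPKM in cKO 1 and 2, and at rank 8811 to 10065 in the controls. All of its counts were whole numbers. The implied transcript length was 1852 to 1854 bases in every library, and its single annotated transcript has 1854 bases. With 1 transcript the calculation has to return that length, so the match says nothing about the reads.

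Chrng encodes the γ subunit of the muscle acetylcholine receptor, the fetal form that the ε subunit replaces in innervated muscle. It was the most abundant of the 7 genes in every control library, with 854, 1052 and 1175 counts in Ctrl 1, 2 and 3, and 3058 and 6024 counts in cKO 1 and 2. In CPM it lay at 45.4 ± 5.87 in Ctrl (SD, n = 3) and at 125 and 224 in cKO. The log2 fold change was 1.94 (SE 0.26), and it was 1.46 without cKO 2. Chrng was also the only member that was higher in cKO 2 than in cKO 1. Its rank by FPKM was 1366 to 1676 in the controls, and 705 and 362 in cKO 1 and 2. The implied transcript length was 2373 and 2629 bases in cKO 1 and 2 and 2414 to 2572 bases in Ctrl, closer to each other than those of Ttn.

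Each member was set beside its nearest relatives, on FPKM (per gene length), since levels of different genes compare only per length. Chrng RNA came without most of its receptor partners. In muscle the fetal receptor is built from α1, β1, δ and γ subunits. Chrna1 had 1 to 3 counts in every library, Chrnd had 0 counts in both cKO libraries and 2 in each Ctrl library, and Chrne had no count in any. Of the partners, only Chrnb1 was above 3 counts, at 1.09 to 2.05 FPKM, against 13.98 to 101 FPKM for Chrng. Chrnb1 was not called (log2 fold change −0.58, SE 0.37, edgeR adjusted p = 0.335). Rapsn, which encodes the rapsyn that clusters these receptors, was in every library at 4.98 to 14.9 FPKM. It rose in cKO, to 20.4 ± 0.836 CPM (SD, n = 2) from 9.0 ± 1.12 CPM (SD, n = 3) in the controls (log2 fold change 1.18, SE 0.18, edgeR adjusted p = 0.017). Musk, the kinase that directs clustering, had 4 counts in Ctrl 2 and none elsewhere.

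The relative of Nmrk2, Nmrk1, was low in all libraries, at 0.198 to 0.767 FPKM, and both cKO libraries lay below the controls (log2 fold change −1.25, SE 0.64, edgeR adjusted p = 0.237, not called). In Ctrl both kinases were of like level per length, at 0.314 to 0.587 FPKM for Nmrk2 and 0.427 to 0.767 FPKM for Nmrk1, whereas in cKO Nmrk2 was at 69.9 and 21.3 FPKM. Among 21 genes of NAD synthesis and use, 15 passed the count filter, none was called higher by edgeR and 2 were called lower, while without adjustment 1 was higher and 4 were lower at a p under 0.05. Over all 11724 genes tested, 5.76% were called higher and 7.73% lower, 13.5% in all, and 2 of 15 is near that share. The 2 called lower were Nadsyn1, NAD synthetase, and Bst1, an NAD-consuming ectoenzyme, neither of which had a count in the cKO pools. Nadsyn1 was lower by 5.47-fold or more (edgeR adjusted p = 0.0406), and Bst1 by 10.1-fold or more (edgeR adjusted p = 0.0251). The deacetylase gene Sirt2 was the most abundant of them at 111 ± 13.8 CPM in Ctrl and was not called (log2 fold change −0.55, SE 0.23, edgeR adjusted p = 0.153), and neither was Parp1 (−0.37, SE 0.33, edgeR adjusted p = 0.49). Nampt, the rate-limiting enzyme of nicotinamide salvage, is named after its values were seen. It had 662 and 481 counts in cKO and 227 to 278 in Ctrl (log2 fold change 0.97, SE 0.27, edgeR adjusted p = 0.0613, not called). It was the 1 gene of the list called higher by DESeq2, by limma on either FPKM scale and by edgeR with total-count scaling. By edgeR with DESeq2 size factors, without the count filter or with the replicate number as a block, Nampt was not called higher. Nor was it with any 1 control left out.

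Among creatine kinases, the brain form Ckb was the main one per length, at 25.2 to 27.4 FPKM in Ctrl and 61.1 and 93.6 FPKM in cKO, against 0.126 to 2.23 FPKM for Ckm over all libraries. Ckb rose (log2 fold change 1.33, SE 0.16, edgeR adjusted p = 0.00995). The sarcomeric mitochondrial form Ckmt2 rose too, to 13.1 ± 2.98 CPM (SD, n = 2) from 0.903 ± 0.251 CPM (SD, n = 3) in the controls (log2 fold change 3.86, SE 0.34, edgeR adjusted p = 0.00475). It had 268 counts in cKO 1, 407 in cKO 2 and 16 to 22 in Ctrl, so that cKO 2 was the higher pool, the reverse of Ckm. Ckmt1 had at most 3 counts in any library.

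Among α-actinins, the non-muscle Actn4 was the most abundant per length, at 15.6 to 16.3 FPKM in Ctrl, and fell in cKO (log2 fold change −1.11, SE 0.22, edgeR adjusted p = 0.028). Actn2, an α-actinin of heart and skeletal muscle, was at 4.50 to 5.20 FPKM in the controls, above the 0.501 to 0.632 FPKM of Actn3. It was at 8.13 FPKM in cKO 1 and 1.79 FPKM in cKO 2, on either side of the controls (edgeR adjusted p = 0.942). Actn1 was low, and was not called (edgeR adjusted p = 0.645).

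Among actins, the cytoplasmic forms Actb and Actg1 led, and smooth-muscle Acta2 was at 70.9 to 95.7 FPKM in Ctrl and 118 and 151 FPKM in cKO, none of them called (edgeR adjusted p = 0.21, 0.0546 and 0.172). Cardiac Actc1 had 45 counts in cKO 1 and 0 in the other 4 libraries, like Acta1, while Actg2 had none in any. Actin genes are close in sequence, and how far reads were shared between them was not tested, so the level of Acta1 is uncertain.

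Beside Des, the type III filament gene Vim was at 87.2 to 153 FPKM in all libraries and was not called (edgeR adjusted p = 0.152), and neither was Gfap (edgeR adjusted p = 0.0642), which had 560 to 709 counts in Ctrl and 188 and 26 in cKO 1 and 2. The desmin partner Synm was at 56.0 to 57.8 CPM in the controls and at 41.5 and 77.0 CPM in cKO (edgeR adjusted p = 0.904), and Nes was low (edgeR adjusted p = 0.388). The beaded-filament genes were more abundant by far. Bfsp1 fell in cKO (log2 fold change −1.34, SE 0.24, edgeR adjusted p = 0.0227) and Bfsp2 was not called (−0.63, SE 0.25, edgeR adjusted p = 0.141). Of the titin-like genes, Speg, a muscle kinase, fell from 7.53 ± 1.10 to 1.99 ± 0.0193 CPM (log2 fold change −1.92, SE 0.28, edgeR adjusted p = 0.0145), the opposite direction to Ttn, and Obsl1 was not called (edgeR adjusted p = 0.423). Myom1 had at most 9 counts, and Myom3 at most 12.

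**Figure D2:**
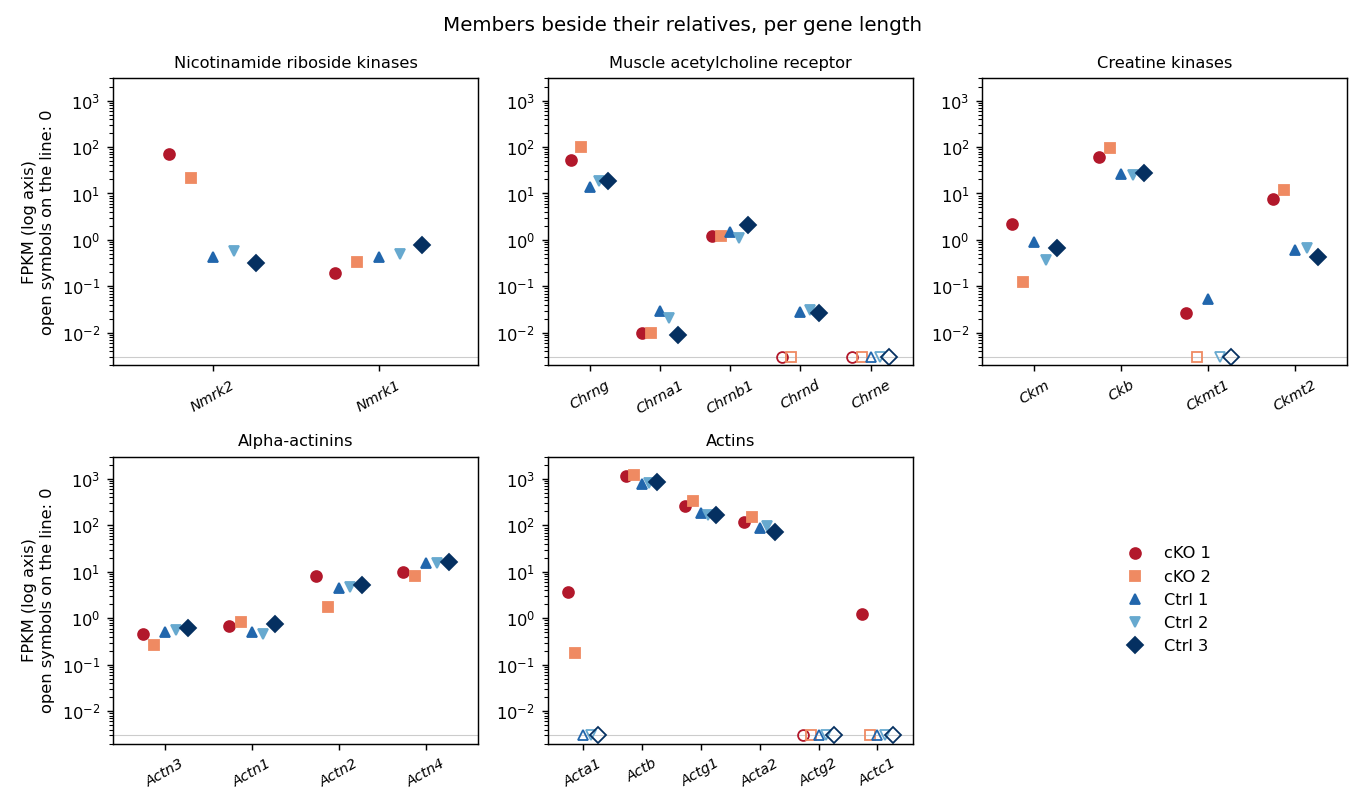
FPKM (log axis) of 5 members and their relatives in each library, 1 symbol per library, with values of 0 as open symbols on the grey line. Chrng exceeds its partner subunits in all libraries, Nmrk2 exceeds Nmrk1 by a wide margin in both cKO libraries, and Ckm lies below Ckb throughout.

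To see whether other muscle RNA moved with the members, 89 further skeletal muscle genes in 7 lists were read in every library (thick filament, thin filament, Z-disc, excitation-contraction coupling, neuromuscular junction, energy metabolism and myogenic regulators). More of them were present in cKO 1 than elsewhere. In cKO 1, 51 of the 89 had more than 3 counts, against 30 in cKO 2 and 28, 30 and 30 in Ctrl 1, 2 and 3. Over all genes the same numbers were 11851 in cKO 1, 11397 in cKO 2 and 12273 to 12517 in Ctrl, so that cKO 1 did not hold more genes in general than the controls.

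Of the 60 muscle genes above 3 counts anywhere, 17 (28.3%) passed 3 counts in cKO 1 and in no other library, against 2.93% of all genes above 3 counts anywhere (1.85% of all genes in the table). These 17 had 4 to 87 counts in cKO 1, and 14 of them had 0 in the other 4 libraries. They were mostly fast-fibre sarcomere genes. Myl1, an essential myosin light chain, had 87 counts, and the troponins Tnnc2, Tnnt3 and Tnni2 had 75, 60 and 47. Myh1, the type IIx myosin heavy chain, had 51, and the calcium pump gene Atp2a1 had 42. All of these had 0 counts in cKO 2. Mylpf, Tcap and Mb, which encode a myosin light chain, telethonin and myoglobin, had 110, 94 and 54 counts in cKO 1 and 11 each in cKO 2. Among the members, Acta1 (127 and 4 counts) was above all of these in cKO 1 and had no count in Ctrl, as most of them had. Ckm (92 and 7 counts) was within their range in both cKO pools, but had 14 to 38 counts in Ctrl, where these genes had 0 to 9. The regulators of muscle fate gave almost nothing. Of 11 myogenic genes, Myod1 had at most 5 counts, Myf6 had 5 in cKO 1 only, and Myog, Myf5 and Pax7 had at most 3 in any library, so that none passed the filter. Klhl40 had 16 counts in cKO 2 and none elsewhere, and Smyd1 had at most 5.

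Other muscle genes were in every library, controls included. There were 19 muscle genes with more than 3 counts in all 5 libraries. The glycolytic genes were the most abundant. Pgam2, the muscle form of phosphoglycerate mutase, was at 672 ± 43.1 CPM in Ctrl, and Eno3, β-enolase, at 156 ± 7.08 CPM. Pygm, muscle glycogen phosphorylase, had 1969 to 3075 counts in Ctrl and 3113 and 5117 in cKO. Casq1, the calcium-storing calsequestrin of the sarcoplasmic reticulum, had 769, 784 and 919 counts in the controls, and 1686 and 2024 in cKO 1 and 2. Of the other genes of excitation-contraction coupling, Ryr1 and Cacna1s had at most 3 counts in any library. Jph1 had 8, 11 and 21 counts in Ctrl 1, 2 and 3, 0 in cKO 1 and 37 in cKO 2, and Pvalb had 61 counts in cKO 1, 0 in cKO 2 and 2 to 9 in Ctrl. Chrng, with 854 counts or more, was present in every library too. Its ratio of cKO 1 to cKO 2 was 0.557 in CPM. Among the 19 genes this ratio ran from 0.318 (Myh7b) to 10.97 (Mylpf), with a median of 0.913, and 11 of the 19 were below 1.

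**Figure D3:**
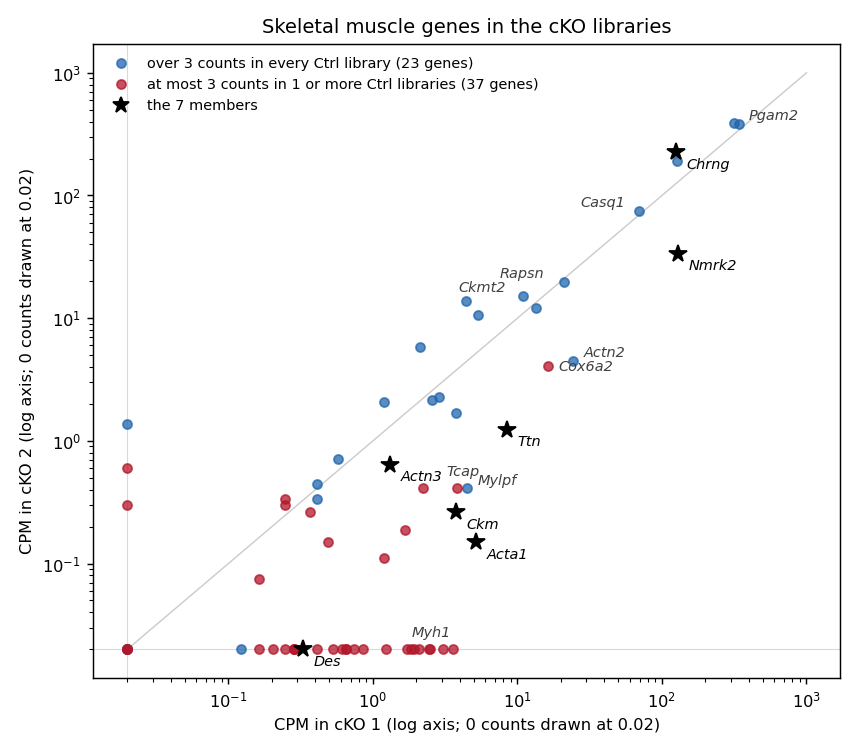
CPM in cKO 2 against CPM in cKO 1 (log axes, 0 counts drawn at 0.02) for the 60 skeletal muscle genes above 3 counts in any library, with the 7 members as stars and the line of equal level in grey. Genes of the controls (blue, 23 genes) mostly follow the line, while a row of sarcomere genes lies at 0 in cKO 2, with Acta1, Ckm and Ttn to the right of the line.

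In cKO 2, 896 counts of Nmrk2 stood beside 0 counts of Myh1, Myl1, Tnnt3, Tnni2 and Tnnc2. Among 19 myofibre markers, 12 had no count in cKO 2. Per length, the highest of these markers there were Pygm (78.5 FPKM), Casq1 (48.3 FPKM), Cox6a2 (7.14 FPKM) and Mylpf (0.75 FPKM), beside 21.3 FPKM for Nmrk2 and 101 FPKM for Chrng. Nmrk2 thus lay between Casq1 and Cox6a2, and Chrng above all 19. In cKO 1 Nmrk2 was at 69.9 FPKM and Chrng at 53.0 FPKM, beside 44.5 FPKM for Pygm and 6.58 FPKM for Mylpf. In Ctrl, Pygm (28.3 to 41.5 FPKM) was above Chrng (13.98 to 18.9 FPKM). Cox6a2, a muscle cytochrome oxidase subunit, had a ratio of cKO 1 to cKO 2 (3.97) like that of Nmrk2 (3.86). Its counts were 398 in cKO 1, 110 in cKO 2, and 3 to 14 in the controls.

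Summed over all 19 myofibre markers, abundance was 243 and 271 CPM in cKO and 129 to 154 CPM in Ctrl (log2 ratio of means 0.87, two-sided exact permutation p = 0.1, the lowest value that 10 splits allow). Casq1 and Pygm made up most of that sum. Without them, as chosen after seeing the data, it was 46.7 CPM in cKO 1, 5.44 CPM in cKO 2 and 0.845 to 1.67 CPM in Ctrl (log2 ratio 4.43, exact permutation p = 0.1). Cox6a2 made up 4.10 of the 5.44 CPM in cKO 2. Cox6a2 was then left out as well, also a choice made after seeing the data, and by itself it lowers the sum of cKO 2. The other 16 markers summed to 30.5 CPM in cKO 1 and 1.34 CPM in cKO 2. Their sum was 0.691 to 1.02 CPM in Ctrl, so that cKO 2 stayed above each control (log2 ratio of the groups 4.15, exact permutation p = 0.1). In cKO 1, 16 of the 19 markers were above 3 counts, against 6 in cKO 2 and 5 in each Ctrl library.

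RNA of other cell types also differed between these pools. Fibroblast markers summed to 18.9 CPM in cKO 1, 6.15 CPM in cKO 2 and 21.2 to 23.2 CPM in Ctrl, and the 5 genes went different ways. Dcn (275 counts) and Lum (28 counts) were above 3 counts in cKO 1 only. Col1a1 had 66 counts in cKO 1, 127 in cKO 2 and 1 to 8 in Ctrl, and rose (log2 fold change 4.44, SE 0.86, edgeR adjusted p = 0.0275). Col1a2 had 23 to 50 counts in all libraries. Pdgfra, which made up most of the Ctrl sum with 415 to 513 counts, had 48 in cKO 1 and 0 in cKO 2, and was called lower (edgeR adjusted p = 0.047). Macrophage markers (4 genes) summed to 39.4 and 15.3 CPM in cKO 1 and 2 and to 0.499 to 1.99 CPM in Ctrl. Lens epithelium markers (4 genes) summed to 25.9 and 20.2 CPM in cKO and 112 to 163 CPM in Ctrl. Heart markers (7 genes) summed to 3.59 CPM in cKO 1 and 0.154 to 0.782 CPM elsewhere, with Myh6 at 49 counts in cKO 1 and 0 in all others. Smooth muscle markers summed to 239 and 253 CPM in cKO and 138 to 207 CPM in Ctrl, nearly all of it Acta2, and the defining gene Myh11 had at most 5 counts. Smtn, which encodes smoothelin, fell (log2 fold change −3.31, SE 0.82, edgeR adjusted p = 0.0485). Retina markers (5 genes) summed to 41.7, 9.67 and 1.54 CPM in Ctrl 1, 2 and 3 and to 7.19 and 1.86 CPM in cKO 1 and 2, so that Ctrl 1 stood apart and the controls had the order they have for Des. Pigment-cell markers (5 genes) summed to 3.29 to 5.07 CPM in Ctrl, 2.37 CPM in cKO 1 and 0.298 CPM in cKO 2, and endothelium markers (4 genes) to 1.51 to 2.46 CPM in Ctrl and 5.06 and 4.92 CPM in cKO. Nerve and Schwann markers (4 genes) were low, at 0.244 to 1.96 CPM, and Sox10 had at most 3 counts. The part of these cells in the levels of the 7 genes was not tested.

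Of the 89 muscle genes, 25 passed the count filter, and 8 of these 25 (32.0%) were called higher and 4 (16.0%) lower in cKO, against 5.76% and 7.73% of all 11724 genes tested. Over all genes these were 675 higher and 906 lower, or 1234 and 717 with total-count scaling. Genes seen only in cKO 1 could not pass that filter. The median log2 fold change of the 25 was −0.05, beside −0.06 over all genes. The genes that rose were Casq1 (0.99, SE 0.13, edgeR adjusted p = 0.0126), Rapsn and Ckmt2 as given, Eno3 (1.17, SE 0.15, edgeR adjusted p = 0.0111), Cox6a2 (5.0, SE 0.85, edgeR adjusted p = 0.0211), Tcap, the cardiac and slow-fibre myosin gene Myh7b (2.30, SE 0.49, edgeR adjusted p = 0.0341) and the slow troponin Tnni1 (2.92, SE 0.72, edgeR adjusted p = 0.0473). Myh7b and Tnni1 were higher in cKO 2 (373 and 155 counts) than in cKO 1 (108 and 52). Tcap had 94 counts in cKO 1, 11 in cKO 2 and 1 in all controls together (edgeR adjusted p = 0.0358). From counts summed within groups, the ratio was 139 (exact 95% interval 24.5 to 5553). That interval covers counting error only and leaves out the spread between pools.

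The 4 genes that fell were 2 sarcomere genes and 2 others. Mybpc1, slow myosin-binding protein C, had 133 to 161 counts in Ctrl and 10 and 12 in cKO, and fell (log2 fold change −3.93, SE 0.34, edgeR adjusted p = 0.00464). Mypn, which encodes the Z-disc protein myopalladin, fell from 24.1 ± 0.565 to 7.95 ± 3.67 CPM (−1.60, SE 0.30, edgeR adjusted p = 0.0262). Pgam2 fell (log2 fold change −0.89, SE 0.15, edgeR adjusted p = 0.0199), and this call was lost with total-count scaling. Jph2, a junctophilin, had no count in the cKO pools and was lower by 7.18-fold or more (edgeR adjusted p = 0.0307). Tpm1 and Tpm2, the most abundant thin-filament genes, were not called (edgeR adjusted p = 0.103 and 0.653).

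These calls rested on all 3 controls. With any 1 of the 3 controls left out, at most 1 gene of the 89 was called higher by edgeR (Ckmt2) and at most 1 lower (Mybpc1). Without cKO 1, 7 of the 8 higher calls remained, all but Tcap, and all 4 lower calls. Without cKO 2, 25 of the 89 were called higher, among them Myh1, Myl1, Tnnt3 and Acta1's paralog Actc1. With 1 cKO library left, its spread is taken from the controls. With the replicate number as a block, 2 were called higher (Ckmt2 and Cox6a2) and 1 lower (Mybpc1).

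**Figure D4:**
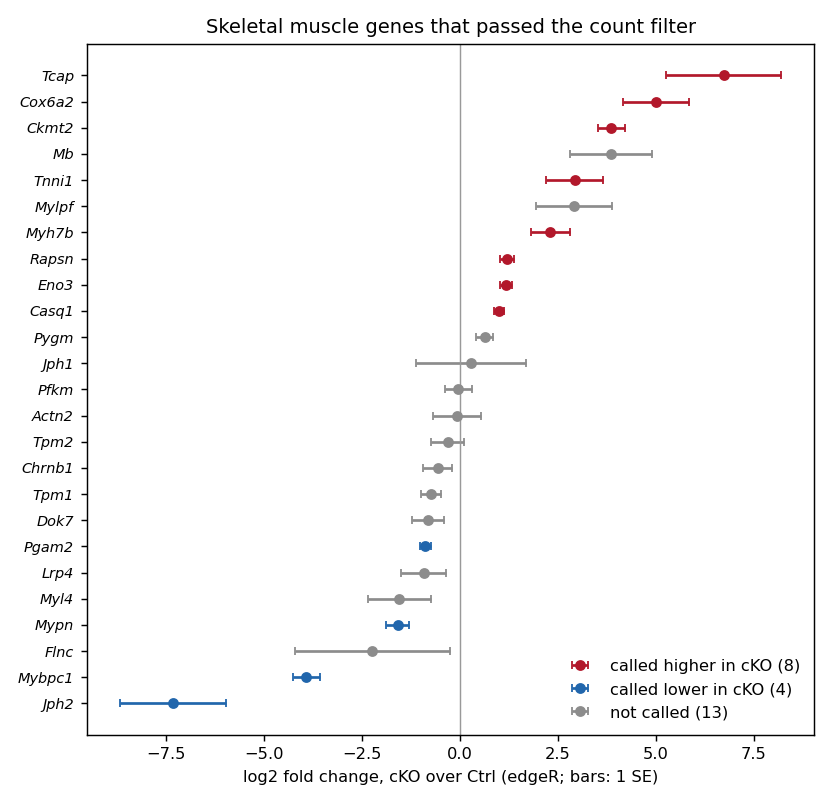
Log2 fold change of cKO over Ctrl (x axis, bars of 1 SE, edgeR) for the 25 skeletal muscle genes that passed the count filter, with called genes in red (8 higher) and blue (4 lower) and 13 that were not called in grey. The values of Tcap and Jph2, which had 1 and 0 counts in one of the groups, depend on the prior count and are not sizes.

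The genes whose profile over the 5 libraries was most like that of each fitted member were found by the root mean square difference of centred log2 CPM. For Nmrk2 they were Itgax, H2-Ab1 and Ear2 (0.54, 0.57 and 0.59), all known from myeloid cells, with 126 and 44, 916 and 210, and 179 and 33 counts in cKO 1 and 2. H2-Ab1 had 8 to 13 counts in Ctrl and the others none. For Ttn they were Unc93b1, Slc39a14 and Igf1 (0.45, 0.46 and 0.46). For Chrng they were Slc41a3, Clgn and Fibin (0.12, 0.13 and 0.15), all higher in cKO 2 than in cKO 1. Actn3 was most like Taf5, Rb1cc1 and Manea (0.061, 0.064 and 0.068), and Ckm was most like Prim2, Kcnab1 and Alox15 (0.30, 0.38 and 0.40). Only genes with a mean of at least 1 CPM were searched, which left out the 17 muscle genes above 3 counts in cKO 1 only.

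For Des, Il1r1 (0.30) and Flnc (0.73) were among the nearest. Both had 0 counts in Ctrl 3 and in cKO 2, as Des had. In Ctrl 1 and 2, Il1r1 had 66 and 56 counts, and Flnc, which encodes the Z-disc protein filamin C, had 45 and 53. In cKO 1 they had 8 and 16 counts. Flnc was not called (edgeR adjusted p = 0.483). Des and Flnc were thus present in the same 3 libraries, Ctrl 1, Ctrl 2 and cKO 1, while Myh1, Myl1 and Acta1 had no count in Ctrl 1 and 2.

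By annotation (GENCODE M21, another build), no gene on the same strand overlaps any of the 7. On the opposite strand a gene overlaps Nmrk2, Acta1, Ckm, Des and Ttn (Atcayos, Gm20388, A930016O22Rik, Gm15179 and Gm13938), none of which has a row in the table. Casq1 and Rapsn have such partners too (Gm17224 and Gm13778). Whether counting used strand was not stated, so reads of such partners cannot be told apart from those of the named genes. Actn3 and Chrng have no overlapping gene.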

How the data were processed

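Poly(A) RNA of 5 pools of P14 lenses was sequenced (paired reads of 150 bp, RNA integrity above 8.0, per the labels' protocols). In 1 deposited table the authors gave expected counts and FPKM values per gene, with a column for each library. Per the submitters' processing notes, RSEM, Trimmomatic 0.18.0 and build GRCm39 were used. Not given in the sources used here were aligner, annotation, strand and Cre driver. The expected counts as deposited carry no scaling between libraries, and 6.03 to 7.47% were not whole. The FPKM values, scaled by the authors to length and library per the file headers, served for levels between genes and as an alternative. Symbols shared by more than 1 identifier (20) went to the one with the highest total.

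Expected counts were rounded, filtered with filterByExpr (minimum count 10, total 15), scaled by TMM and compared by edgeR's quasi-likelihood test (edgeR 4.0.16, R 4.3.3) with Benjamini-Hochberg adjustment over 11724 genes and a threshold of 0.05. SEs come from the F statistic. "Rose", "fell" and "called" refer to that threshold. Alternatives used limma 3.58.1 and DESeq2 1.42.0, and the code was tested on simulated data. Pools are labelled as biological replicates, so p-values measure the spread between pools.

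The 7 members, the lists and the tests were chosen with earlier results of these data known. Named genes are the members, every called and the 2 most abundant genes of each muscle or NAD list, the relatives with a count, and the 3 genes most like each member (mean CPM of at least 1, prior count 0.5). Others are named to show a list's makeup, and some genes under this rule are not reported here.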

Additional observations from a re-analysis of the deposited data

How the results depend on the processing

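The calls over all genes (675 higher and 906 lower in cKO) moved with scaling and tool. Higher calls numbered 1234 with total-count scaling, 1380 with limma on log2(FPKM + 1), 1402 on log2(FPKM + 0.1) and 1209 with DESeq2's Wald test, which gave 1521 lower ones. The median of all genes moved by 0.22 (log2) with total-count scaling and by 0.14 and 0.16 on the FPKM scales. With a library left out, higher calls ranged from 6 to 2197 and lower calls from 15 to 2964. For the muscle genes (8 higher, 4 lower) they ranged from 0 to 25 and from 0 to 6. With the replicate number as a block, 68 genes were called higher and 107 lower over all genes, and 2 and 1 among muscle genes. Deviations of same-numbered libraries from their group means correlated at 0.108 and −0.0834 across genes. With 2 cKO libraries their deviations mirror each other, so these values cannot decide whether the numbers mark pairs. The muscle counts stayed within 1.5 times under the other alternatives run, as did the direction of the marker sum (log2 ratio 0.79 to 1.33, 4.43 without Casq1 and Pygm, 4.15 without Cox6a2 as well).

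Of 70 values of the 6 fitted members under alternatives, 58 moved by less than 1 SD of the pools and 10 by more. Ckm turned negative without cKO 1 (−2.16, against 1.68 without cKO 2) and with the replicate block (−0.043). Among other named genes, Actn2 turned positive without cKO 2 (0.67, edgeR adjusted p = 0.0114, lowest −1.78 without cKO 1) and Synm negative (−0.45, edgeR adjusted p = 0.0321, highest 0.42 without cKO 1). Kcnab1 and Alox15 turned negative without cKO 1 (−2.87 and −1.95, edgeR adjusted p = 0.0323 and 0.00262) and were highest without cKO 2 (0.90 and 1.26). The cause was not tested. With 2 and 3 pools, depth limits Acta1, Des and most sarcomere genes, whose counts lie near 0 in most pools.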
